A study of Mus musculus with 13 samples.

Results

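The 10 genes described here encode parts of the machinery with which developing T cells assemble, display and use their antigen receptor. They were chosen by name and matched by mouse symbol to the 53379 genes of the count table, and all 10 were found: the recombination genes Rag1, Rag2 and Dntt, the pre-TCR and CD3 genes Ptcra, Cd3d, Cd3e and Cd3g, and the coreceptor genes Cd4, Cd8a and Cd8b1. RNA was measured in bulk in CD45- cells of the thymus of wild-type C57BL/6 mice, 2 months of age. The steady state is represented by 4 libraries, and 3 were made at each of 3 times, days 1, 4 and 7, following a sublethal dose of total body irradiation (SL-TBI). The steady-state libraries are labelled untreated, but their columns carry the name PBS (phosphate-buffered saline), and each is called here by its column (PBS day 1 replicate 2, PBS day 4 replicate 2, PBS day 7 replicates 1 and 2). All 10 genes passed the filter on low counts that left 19984 genes for testing.

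RAG1 and RAG2 form the recombinase that cuts DNA at V, D and J segments, and TdT, the product of Dntt, adds nucleotides without a template at the junctions. In thymocytes without CD4 and CD8 (double-negative), a rearranged TCR beta chain pairs with pre-TCR alpha, the product of Ptcra, and with the CD3 chains, and signals for survival and division. The cells then display both coreceptors (double-positive), express the RAG genes again to rearrange the TCR alpha locus, and after selection keep CD4 or CD8 and switch recombination off. The CD3 chains are carried through all of these later stages, so that the genes differ in the window of development in which they are used. T cells and thymocytes carry CD45 on their surface. The sort was meant to leave them out, and the source of the RNA of these genes in the CD45- libraries was not tested. In bulk RNA, fewer cells of a type and less RNA per cell cannot be told apart.

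Several of the genes lie next to each other in the mouse genome (GRCm38). Rag1 (chromosome 2, 101638282 to 101649501, minus strand) lies 5.8 kb from Rag2 (101624718 to 101632529, plus strand), with which it is transcribed convergently. On chromosome 9, Cd3g (44969572 to 44980431, minus strand) lies 1.4 kb from Cd3d (44981786 to 44987339, plus strand), and Cd3e (44998740 to 45009627, minus strand) lies 11.4 kb from Cd3d. On chromosome 6, Cd8b1 (71322788 to 71337494, plus strand) and Cd8a (71373427 to 71379173, plus strand) are 35.9 kb apart, and Cd4 (124864692 to 124888221, minus strand) lies far from both. Dntt is on chromosome 19 (41029275 to 41059523, plus strand) and Ptcra on chromosome 17 (46755663 to 46763712, minus strand). Exons of other annotated genes covered 1.21% of the exonic length of Rag1, 6.07% of that of Rag2 and 3.31% of that of Cd3e, and the counting did not use strand. The other 7 genes had no such overlap.

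Promoters of 4 genes are printed because these genes parted on day 4: Rag1 and Cd8a were far lower relative to Cd3e in the same libraries, whereas Dntt and Ptcra were not (values follow). The windows are RefSeq sequences of GRCm38.p6, 250 bases before to 50 bases after the annotated start, and 8 of the 10 genes were matched. Cd4 and Cd8b1 were not. Capitals mark matches on either strand to an E box (CAGNTG), the core bound by E proteins, to a RUNX core (TGTGGT) or to a TCF core (CTTTGA). They lie at chr2:101649483-101649782 (minus strand) for Rag1, chr6:71373177-71373476 (plus strand) for Cd8a, chr19:41029025-41029324 (plus strand) for Dntt and chr17:46763663-46763962 (minus strand) for Ptcra.
Rag1: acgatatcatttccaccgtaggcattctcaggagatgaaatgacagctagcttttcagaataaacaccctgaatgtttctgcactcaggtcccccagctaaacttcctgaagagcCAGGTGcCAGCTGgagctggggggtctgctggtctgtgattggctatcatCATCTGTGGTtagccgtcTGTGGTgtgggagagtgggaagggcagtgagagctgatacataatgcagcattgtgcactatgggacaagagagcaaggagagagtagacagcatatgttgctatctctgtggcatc
Cd8a: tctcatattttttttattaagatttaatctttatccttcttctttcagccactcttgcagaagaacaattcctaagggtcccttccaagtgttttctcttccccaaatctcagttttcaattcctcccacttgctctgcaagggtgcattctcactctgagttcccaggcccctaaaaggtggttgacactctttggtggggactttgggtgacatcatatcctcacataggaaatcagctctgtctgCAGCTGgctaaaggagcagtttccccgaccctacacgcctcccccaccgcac
Dntt: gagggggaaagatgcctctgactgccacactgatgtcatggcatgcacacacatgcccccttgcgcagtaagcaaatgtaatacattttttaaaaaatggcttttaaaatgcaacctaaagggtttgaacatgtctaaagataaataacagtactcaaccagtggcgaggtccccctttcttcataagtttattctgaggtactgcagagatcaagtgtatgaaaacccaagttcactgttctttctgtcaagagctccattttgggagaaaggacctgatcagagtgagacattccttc
Ptcra: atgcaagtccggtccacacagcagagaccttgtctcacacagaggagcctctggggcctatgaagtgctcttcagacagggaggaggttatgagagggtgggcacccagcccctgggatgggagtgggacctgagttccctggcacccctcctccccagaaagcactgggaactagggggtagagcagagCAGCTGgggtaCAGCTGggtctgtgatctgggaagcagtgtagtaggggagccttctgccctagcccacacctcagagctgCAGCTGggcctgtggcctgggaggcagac
The Rag1 window held 3 E boxes, one of which overlaps the first of its 2 RUNX cores. The Cd8a window held 1 E box, the Ptcra window held 3, and the Dntt window held no match to any of the 3 motifs. Of all 32851 promoter windows, 51.4% held an E box, 16.8% a RUNX core and 16.0% a TCF core. The other windows held 1 E box in Rag2, 1 in Cd3e, 3 in Cd3g, and 1 E box with 2 TCF cores in Cd3d. E boxes were thus found on both sides of the day 4 division, and these matches describe letters, not bound sites.

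Total counts per library ran from 15721866 (day 4 replicate 1) to 52056896 (day 4 replicate 2), with a median of 44078906. Levels are given as normalised CPM (counts relative to library size, after TMM normalization) and differences as log2 fold changes ± SE from a single edgeR fit of all 13 libraries, whose quasi-likelihood p-values were adjusted over all 19984 genes with the Benjamini-Hochberg method. A gene with an adjusted p of 0.05 or less is said to have risen or fallen. Nothing in the labels says that libraries of a group came from separate mice, so the p-values measure the spread between these samples. Ptprc, which encodes CD45, ran from 24.0 to 119 CPM at steady state, 12.7 to 15.0 on day 1, 4.07 to 4.54 on day 4 and 21.6 to 606 on day 7, and so was detected in every library of this CD45- sort. Summed over the 10 stromal markers listed (such as Foxn1 and Cdh5), levels ran from 3662 to 28565 CPM over all libraries. The stroma was thus present throughout, and none of the 10 stromal markers passed the test in any of the 6 comparisons between conditions.

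The 3 coreceptor genes had their lowest mean levels on day 4 and their highest on day 7. Cd8b1, which encodes the beta chain of CD8, had 80.9, 35.1, 102 and 38.8 CPM in the steady-state libraries (PBS day 1 replicate 2, PBS day 4 replicate 2, PBS day 7 replicates 1 and 2, the order used throughout). It had 26.1, 20.7 and 18.5 CPM in day 1 replicates 1 to 3, 0.065, 0.26 and 0.57 CPM on day 4, and 35.2, 712 and 329 CPM on day 7. The day 1 libraries thus lay below every steady-state library and the day 4 libraries far below both, whereas day 7 replicate 1 was at the lower end of steady state and the other two were above its highest value. Cd8a, the alpha chain, had 57.7, 23.5, 73.1 and 30.9 CPM at steady state, 14.5, 13.8 and 10.6 on day 1, 0.13, 0.40 and 0.37 on day 4, and 21.6, 476 and 199.7 on day 7. Cd4, the coreceptor for MHC class II, had 59.3, 13.8, 67.7 and 27.1 CPM at steady state, 10.2, 11.8 and 9.45 on day 1, 0.19, 0.81 and 0.94 on day 4, and 13.9, 364 and 144 on day 7. For both genes the day 1 and day 4 libraries lay below the lowest steady-state library, and on day 7 replicate 1 lay near or below the lowest steady-state library, with the other two above the highest. The day 4 levels rest on few reads, namely 1, 15 and 31 counts of Cd8b1, 2, 23 and 20 of Cd8a, and 3, 46 and 51 of Cd4 in replicates 1 to 3. With 3 counts taken as the floor of detection, all 3 coreceptors were at or under the floor in day 4 replicate 1, the smallest library.

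Both recombinase genes had their lowest levels on day 4. Rag1 had 49.9, 36.4, 130.0 and 28.5 CPM at steady state, 25.9, 23.9 and 17.7 on day 1, 0.71, 0.32 and 1.15 on day 4, and 20.0, 438 and 249 on day 7. Rag2, its partner, had 6.25, 5.20, 14.2 and 5.91 CPM at steady state, 1.64, 1.76 and 1.19 on day 1, 0.13, 0.33 and 0.33 on day 4, and 4.68, 123 and 46.2 on day 7. Neither gene had a day 1 or day 4 library within the steady-state range, and for both day 7 replicate 1 fell short of every steady-state library while replicates 2 and 3 exceeded them all. Dntt moved less. It had 39.5, 31.6, 86.1 and 29.7 CPM at steady state, 12.8, 11.7 and 9.76 on day 1, 4.00, 3.55 and 6.98 on day 4, and 30.3, 722 and 289 on day 7. Its day 4 libraries still held 62, 202 and 377 counts, against 11, 18 and 62 of Rag1 and 2, 19 and 18 of Rag2.

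Among the pre-TCR and CD3 genes, Cd3e, a signalling chain of the TCR complex, had 50.3, 17.2, 54.8 and 17.0 CPM at steady state, 10.1, 8.36 and 7.48 on day 1, 3.68, 3.51 and 4.42 on day 4, and 14.2, 316 and 161 on day 7. The step from day 1 to day 4 was small beside that of the coreceptors, and the ranges of steady state, day 1 and day 4 did not touch. Cd3d and Cd3g, the delta and gamma chains, ran from 10.7 to 37.5 and 10.7 to 40.7 CPM at steady state, 3.20 to 4.72 and 4.23 to 6.17 on day 1, 1.42 to 2.80 and 2.92 to 5.05 on day 4, and 11.3 to 184 and 11.6 to 268 on day 7. Ptcra was the lowest of these 4, at 1.54, 2.00, 3.46 and 0.73 CPM at steady state, 0.82, 0.37 and 0.42 on day 1, 0.39, 0.32 and 0.76 on day 4, and 1.85, 37.9 and 16.8 on day 7. Its day 1 and day 4 libraries overlapped each other and reached into the steady-state range, which no other gene of the 10 did. The day 4 levels of Ptcra rest on 6, 18 and 41 counts in replicates 1 to 3.

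**Figure D1:**
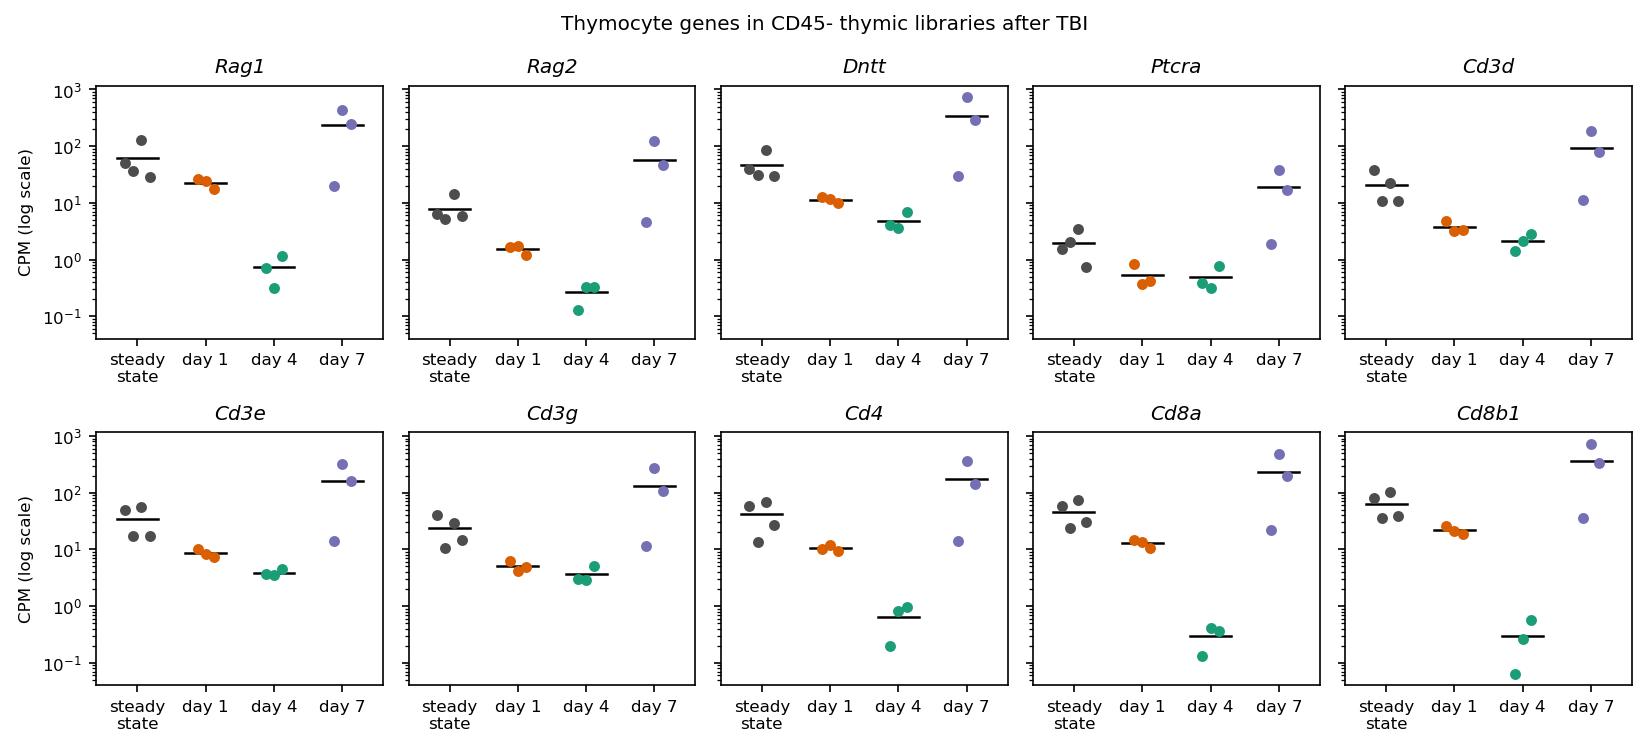
Level of each of the 10 genes in every library, as normalised CPM on a log axis, by condition along the horizontal axis. Points are libraries and black bars are means of 4 (steady state) or 3 libraries. The day 4 points of Rag1, Rag2, Cd4, Cd8a and Cd8b1 lie at or under 1.15 CPM, and those of Ptcra at 0.32 to 0.76 CPM. Those of Dntt and the 3 CD3 genes lie at or above 1.42 CPM. For all 10 genes day 7 replicate 1 is the lowest of the day 7 points.

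On day 1, all 10 genes had lower fitted levels than at steady state and none passed the test. Log2 fold changes lay between -2.44 (Cd3d, ± 0.73, adjusted p = 0.113) and -1.44 (Rag1, ± 0.78, adjusted p = 0.368), with a median of -2.01 for the 10 genes and -0.10 for all genes tested. At an unadjusted p of 0.05, 8 of the 10 were below the threshold, and DESeq2 called 3 of them (Rag2, Cd3d and Cd3g). The share of all genes under that unadjusted threshold was not counted. DESeq2 called 1399 of all 19984 genes in either direction. Of all genes tested, 0.671% had fallen on day 1 by the edgeR test. The day 1 libraries lay below all steady-state libraries for 9 of the 10 genes, the exception being Ptcra, and for 8.56% of all genes. Leaving out day 7 replicate 1, which enters this comparison only through the shared estimate of the spread, brought the count of the 10 that fell to 6. In that fit 612 of 20769 genes were called in either direction. Of the 5 erythroid genes tested, 3 also fell on day 1 (among them Slc4a1 and Alas2, with log2 fold changes of -4.23 and -2.21), and their summed level went from 1559 to 3574 CPM at steady state to 290 to 973 CPM. Their part in the result was not tested.

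On day 4, Cd8b1, Cd8a, Rag1 and Cd4 fell against steady state, with log2 fold changes of -7.54 ± 1.02, -7.11 ± 0.98, -6.39 ± 1.02 and -5.89 ± 1.02 (adjusted p = 0.00487, 0.00487, 0.0174 and 0.0276). The other 6 did not pass. Rag2 came closest, at -4.76 ± 0.91 (adjusted p = 0.0544), and Dntt (-3.26 ± 0.79), Cd3d (-3.26 ± 0.76), Cd3e (-3.17 ± 0.79), Cd3g (-2.70 ± 0.79) and Ptcra (-1.96 ± 0.82) followed, with adjusted p-values from 0.112 to 0.348. All 10 had an unadjusted p under 0.05, for which the share of all genes was not counted. The 4 genes that fell compare with 0.24% of all genes tested, and the 9 genes without overlap (all but Ptcra) with 8.22%. The median log2 fold change was -4.01 over the 10 genes and -0.13 over all genes. Of the 5 erythroid genes, 3 fell on day 4 as well, and their summed level was 6.36 to 9.81 CPM; their part in the result was not tested. The count of 4 depended on the day 4 libraries and on the spread: it was 2 without day 4 replicate 1, 0 without replicate 2, 1 without replicate 3 and 9 without day 7 replicate 1. Over all genes, in either direction, these fits called 34, 19, 21 and 226. With a term for the tag that ends a column's name (k3, kk or neither), Rag1 (-6.08, adjusted p = 0.0951) and Cd4 (-5.61, adjusted p = 0.167) were lost. Of the 10 genes 2 were called, and of all 19984 genes 33 in either direction.

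Compared with day 1, Cd8b1, Cd8a, Rag1, Cd4 and Rag2 had the lowest log2 fold changes of these genes on day 4, as against steady state. Both comparisons use the same day 4 libraries, so the repeated order is no separate evidence. Cd8b1, Cd8a and Rag1 fell, with log2 fold changes of -5.98, -5.27 and -4.95 (edgeR adjusted p = 0.00747, 0.0118 and 0.0231), where 1.07% of all genes fell. Cd4 was at -3.89 (adjusted p = 0.0710) and Rag2 at -2.39 (adjusted p = 0.247). The remaining 5 lay between -1.23 (Dntt) and -0.12 (Ptcra), with adjusted p-values of 0.515 to 0.964. With the tag term none of the 10 was called, against 163 of all 19984 genes in either direction. Under it the log2 fold changes were -5.85 for Cd8b1, -5.09 for Cd8a and -4.68 for Rag1 (edgeR adjusted p = 0.0623, 0.0841 and 0.118). The count was 0 without day 4 replicate 2, 1 without day 4 replicate 3 and 5 without day 7 replicate 1, and leaving out day 1 replicate 1 or 2 or day 4 replicate 1 took it to 2. Over all genes, in either direction, the first 3 of these fits called 91, 87 and 304.

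To compare the genes within a library, each of the other 9 was also set against Cd3e in the same library, as the log2 ratio of counts with 0.5 added to each. Equality of the 4 conditions was tested for each ratio with a two-sided exact permutation test over all 1201200 arrangements of the 13 libraries, and the p-values of the 9 ratios are unadjusted. Of the 9, 5 had a p of 0.05 or less: Cd8b1 (p = 0.0005), Rag1 (p = 0.0009), Rag2 (p = 0.0017), Cd4 (p = 0.0056) and Cd8a (p = 0.0088) by the exact permutation test. For these 5 genes, and for 0.225% of all genes tested, the ratio in each of the 3 day 4 libraries was below that in each of the 10 others. The share of all genes with a p of 0.05 or less in the exact permutation test was not counted. Cd3e itself differed between conditions, so the ratio of a gene of steady level would also shift. The exact permutation p was 0.0594 for Ptcra, 0.0779 for Cd3g, 0.134 for Dntt and 0.302 for Cd3d. Without the day 4 libraries, Cd8b1 alone kept a p of 0.05 or less, and p was 0.0857 for Rag1, 0.12 for Rag2, 0.53 for Cd4 and 0.838 for Cd8a in the exact permutation test of the other 3 conditions.

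The size of the shift differed between the 5 genes. From steady state to day 4, the mean log2 ratio to Cd3e went from 0.95 to -3.96 for Cd8b1, from 0.48 to -3.72 for Cd8a, from 0.77 to -2.57 for Rag1, from 0.22 to -2.79 for Cd4 and from -2.05 to -3.86 for Rag2. In reads, there were 1.61, 2.04, 1.86 and 2.28 reads of Cd8b1 per Cd3e read in the steady-state libraries. On day 4 there were 0.0175 (exact Clopper-Pearson 95% interval 0.000437 to 0.102), 0.075 (0.0412 to 0.127) and 0.13 (0.0862 to 0.189). For Rag1 the steady-state libraries held 0.993, 2.12, 2.37 and 1.68 reads per Cd3e read, and the day 4 libraries 0.193 (0.0912 to 0.372), 0.09 (0.0523 to 0.146) and 0.259 (0.193 to 0.344). The intervals cover counting error only, and for Cd8b1 and Rag1 none of those on day 4 reached the steady-state values. For Rag2 the lowest steady-state value was 0.124 (PBS day 1 replicate 2). The day 4 intervals of replicates 1 (0.00415 to 0.133) and 2 (0.0560 to 0.152) held it. Within tag families, which hold 1 or 2 libraries of a condition here, the Cd8b1 log2 ratio among libraries tagged k3 was 1.03 in the steady-state library and -3.69 and -2.93 in day 4 replicates 2 and 3, and among those with neither tag it was 0.69 and 0.89 at steady state and -5.26 in day 4 replicate 1.

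The other 4 ratios differed less between steady state and day 4. Dntt, at a mean log2 ratio of 0.50 at steady state, was at 0.40 on day 1, 0.26 on day 4 and 1.04 on day 7. Cd3d was at -0.75, -1.21, -0.92 and -0.72, and Cd3g at -0.53, -0.77, -0.13 and -0.37, in the same order of conditions. Ptcra was at -4.15, -4.05, -3.04 and -3.09, so that its ratio to Cd3e was higher on days 4 and 7, with 0.0305, 0.116, 0.0632 and 0.0427 reads per Cd3e read in the steady-state libraries and 0.105 (0.0371 to 0.244), 0.09 (0.0523 to 0.146) and 0.172 (0.12 to 0.24) on day 4. The intervals of day 4 replicates 1 and 2 hold the highest steady-state value, that of PBS day 4 replicate 2, and without that library the exact permutation p of Ptcra was 0.0063. Dntt likewise rested on 1 control: without PBS day 1 replicate 2, where its log2 ratio was -0.35 against 0.65 to 0.88 in the other three, its exact permutation p was 0.0068. Without PBS day 7 replicate 2, p was 0.0448 for Cd3g. With an added count of 2, the exact permutation p of Ptcra was 0.0482. With Cd3g as reference in place of Cd3e, the exact permutation p of Cd3d was 0.0479. On day 7 the log2 ratios of Cd8b1 (1.17), Cd8a (0.50), Cd4 (0.01) and Rag1 (0.53) were again within 0.25 of steady state and that of Rag2 (-1.59) was 0.46 above it, although the levels of the 3 libraries were far apart.

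**Figure D2:**
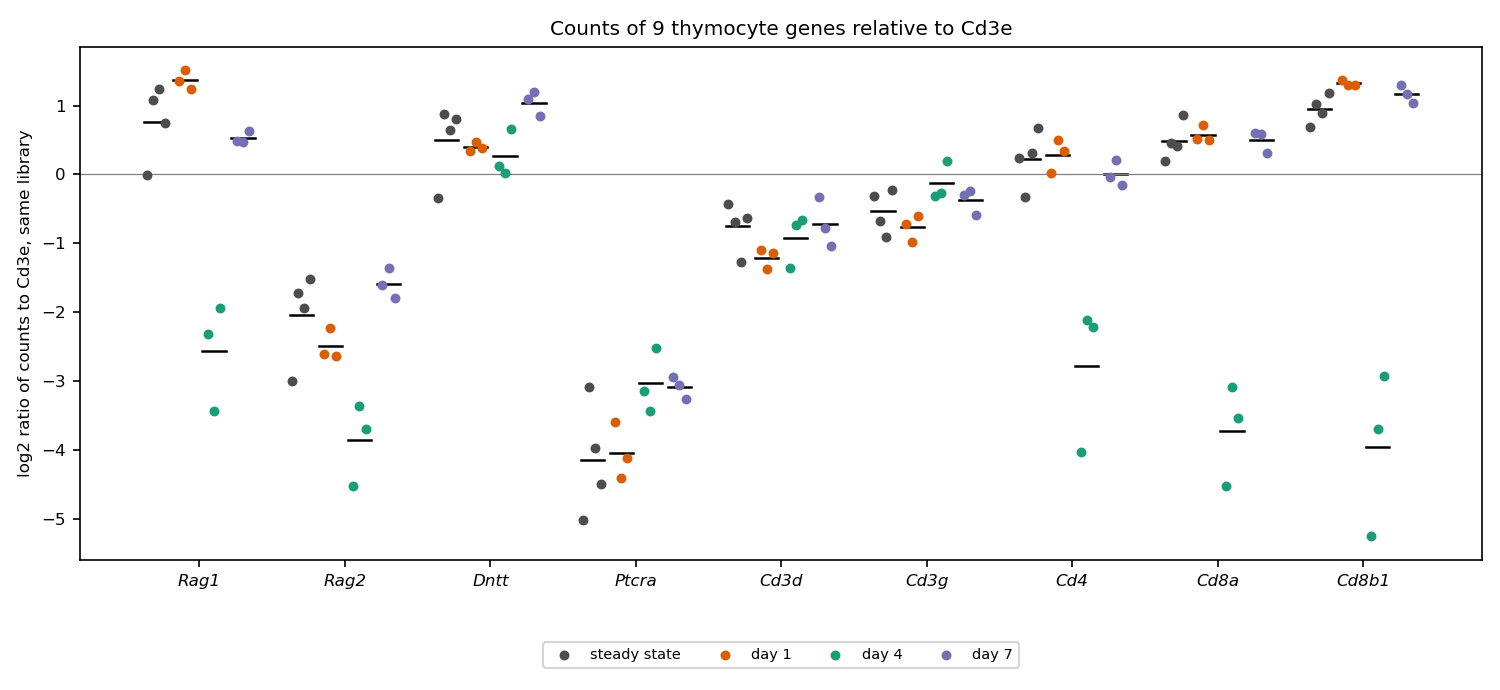
Log2 ratio of the counts of each gene to those of Cd3e in the same library, on the vertical axis, for 9 genes along the horizontal axis. Points are libraries coloured by condition and black bars are means of 4 (steady state) or 3 libraries. The day 4 points of Rag1, Rag2, Cd4, Cd8a and Cd8b1 lie below all others of the same gene, with means from -3.96 to -2.57, whereas those of Dntt, Ptcra, Cd3d and Cd3g overlap or exceed the other conditions.

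Ratios between other pairs of the 10 genes are given as a description, since these pairs were picked after the counts had been seen. The log2 ratio of Cd8b1 to Cd8a, the chains of one heterodimer, was 0.47 at steady state, 0.75 on day 1, -0.24 on day 4 and 0.67 on day 7, a narrow range beside the fall of both. The log2 ratio of Cd4 to Cd8a was -0.26, -0.29, 0.93 and -0.50 in the same order, so that it was highest on day 4. That of Rag2 to Rag1 was -2.81, -3.86, -1.29 and -2.12. Against Dntt, Cd8a went from -0.01 at steady state to -3.98 on day 4 and Rag1 from 0.27 to -2.83, whereas Ptcra went from -4.65 to -3.30.

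Per kilobase of exonic length, which allows levels of different genes to be compared, the order of the 10 genes was nearly the same at steady state and on day 7 and different on day 4. At steady state the mean level was highest for Cd8b1 (43.3 CPM per kb), then Dntt (22.0), Cd8a (12.7), Cd3d (11.3), Cd4 (10.4), Rag1 (9.26), Cd3e (8.53) and Cd3g (7.27), with Rag2 (2.31) and Ptcra (1.51) last. The neighbours from Cd8a to Cd3g differed by less than their SDs over libraries. On day 4, Dntt led at 2.28 CPM per kb, followed by Cd3d (1.16), Cd3g (1.12), Cd3e (0.95) and Ptcra (0.38), and the 5 lowest were Cd8b1 (0.20), Cd4 (0.16), Rag1 (0.11), Cd8a (0.08) and Rag2 (0.08). Cd8b1 thus went from rank 1 to 6 and Ptcra from rank 10 to 5, although Cd3d, Cd3g and Cd3e did not differ beyond their spread. On day 7, Cd8b1 (242), Dntt (163) and Cd8a (63.9) led again, and Rag2 (16.9) and Ptcra (14.7) were last. These means are carried by replicate 2, and in day 7 replicate 1 Cd3d (6.24 CPM per kb) was above Cd8a (5.94) and Ptcra (1.44) above Rag2 (1.37).

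**Figure D3:**
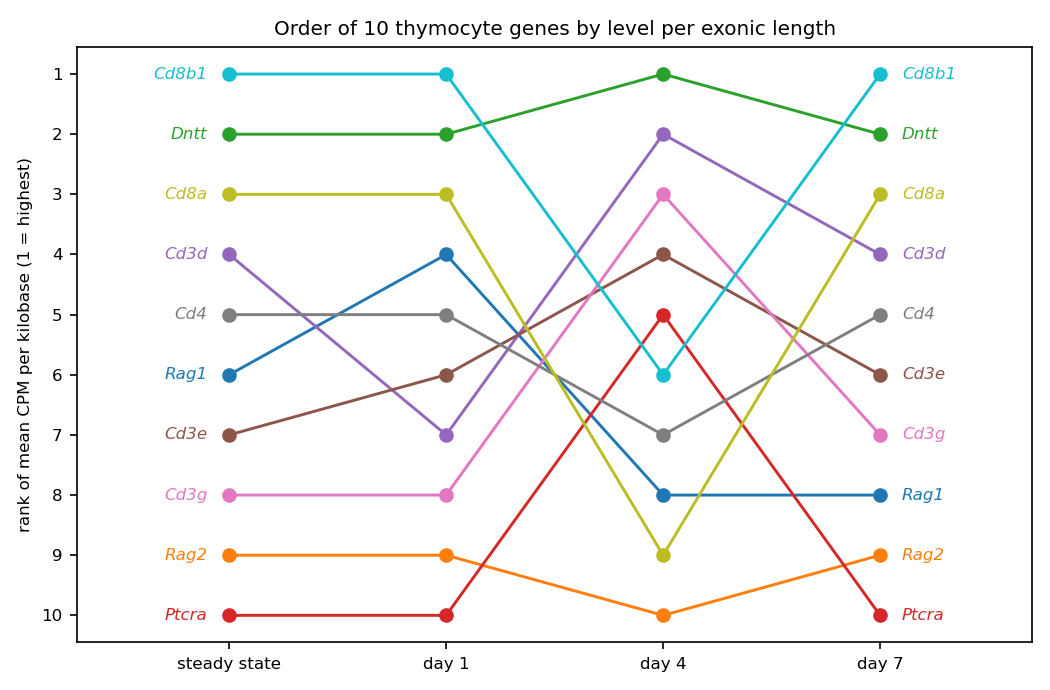
Rank of the 10 genes by mean level per kilobase of exonic length (vertical axis, 1 highest) in each condition (horizontal axis). Lines join the ranks of a gene. Cd8b1 goes from rank 1 at steady state and on day 1 to rank 6 on day 4, Cd8a from 3 to 9, and Ptcra from 10 to 5, and by the means all 3 are back at their steady-state ranks on day 7.

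On day 7 all 10 genes rose against day 4. The 5 largest changes were those of the 5 genes whose ratio to Cd3e had dipped. Both measures use the same day 4 libraries, so this order is no separate evidence of the dip. The log2 fold changes were 10.02 ± 1.13 for Cd8b1, 9.44 ± 1.07 for Cd8a, 8.34 ± 1.12 for Rag1, 7.95 ± 1.12 for Cd4 and 7.64 ± 1.03 for Rag2 (edgeR adjusted p from 0.00105 to 0.00685). They were 6.16 for Dntt, 5.41 for Cd3d, 5.40 for Cd3e, 5.23 for Ptcra and 5.13 for Cd3g (adjusted p from 0.00796 to 0.0135). Of all genes tested, 2.77% rose, and the median log2 fold change was 6.90 over the 10 genes and 0.11 over all. Every day 7 library exceeded every day 4 library for all 10 genes, as for 12.2% of all genes. The count of 10 dropped to 2 without day 4 replicate 2 and to 3 without day 4 replicate 3. Calls over all genes dropped too, to 15 of 20703 and 20 of 20705 in either direction. With all 13 libraries, 553 rose. Against day 1, all 10 rose too, by 3.39 (Rag1) to 5.25 (Rag2) on the log2 scale (adjusted p from 0.00653 to 0.0334), where 3.68% of all genes rose. That count was 5 without day 1 replicate 1 and 5 without day 1 replicate 3. In these fits 472 of 20720 and 715 of 20752 genes were called in either direction. Both comparisons share the day 7 libraries, whose columns all carry a tag part (m0) that no other column has, so that it and day 7 cannot be told apart.

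Against steady state, none of the 10 passed the test on day 7, when 0.005% of all genes rose. Log2 fold changes ran from 1.94 (Rag1) to 3.27 (Ptcra), with a median of 2.38 over the 10 genes and 0.00 over all genes, and edgeR adjusted p-values ran from 0.117 to 0.254. All 10 had an unadjusted p under 0.05, for which the share of all genes was not counted. DESeq2 called 8 of the 10, and 1081 of all 19984 genes in either direction. The spread between the day 7 libraries was wide: the highest (replicate 2) and the lowest (replicate 1) were 4.02 to 4.72 apart on the log2 scale for each of the 10 genes, against 1.45 to 2.30 at steady state, 0.32 to 1.14 on day 1 and 0.33 to 3.15 on day 4. Ptprc was likewise highest in replicate 2 and lowest in replicate 1, at 21.6, 606 and 224 CPM in day 7 replicates 1 to 3. Without day 7 replicate 1, all 10 genes were called higher than at steady state, and 622 of 20769 genes were called in either direction.

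**Figure D4:**
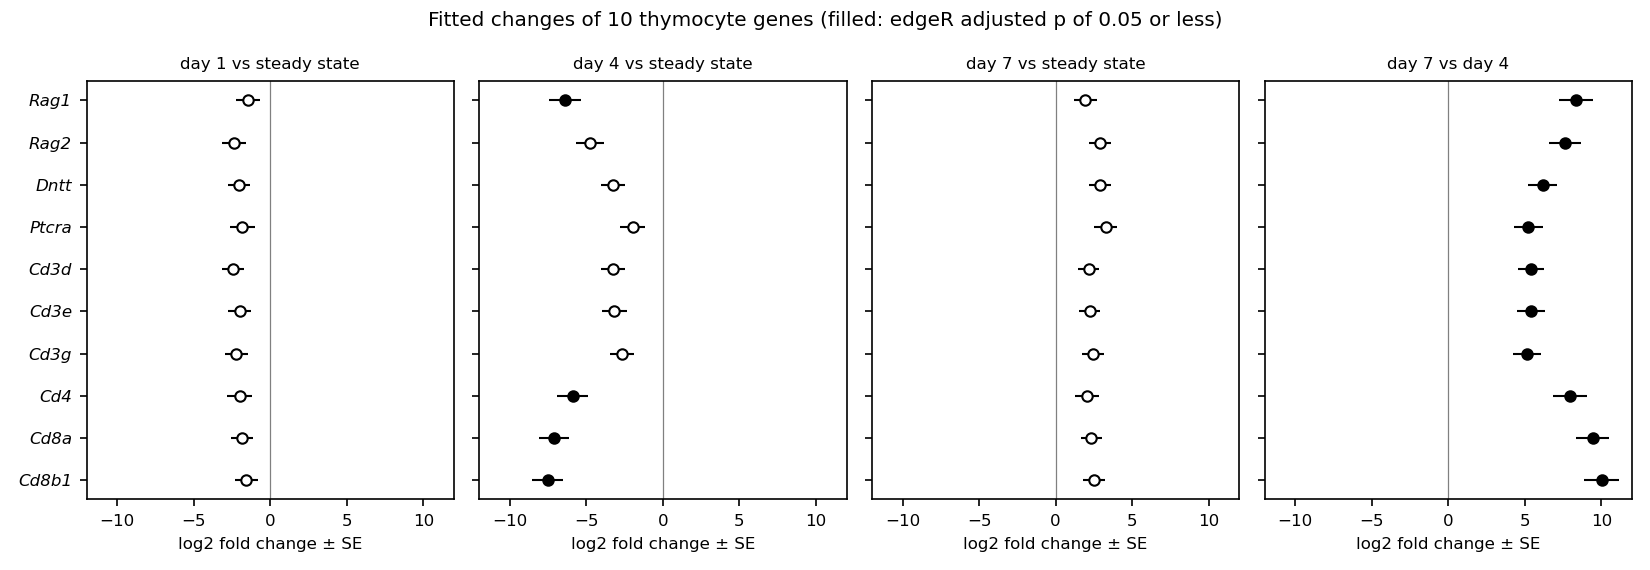
Fitted log2 fold change (horizontal axis) with its SE as a bar, for the 10 genes (vertical axis) in 4 comparisons. Filled points have an edgeR adjusted p of 0.05 or less. No gene is filled on day 1 or day 7 against steady state, 4 are filled on day 4 against steady state, and all 10 are filled on day 7 against day 4, with the coreceptors and RAG genes farthest from 0.

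Other genes of the same pathway and stages were counted from lists. Among 14 genes that signal with the TCR, 11 rose on day 7 against day 4 and 11 against day 1, and none passed on day 1 or day 7 against steady state or on day 4 against day 1. Named by the lowest adjusted p on day 7 against day 4, these were Cd5, an inhibitory receptor (6.89 ± 1.04, edgeR adjusted p = 0.00796), Cd6, a related receptor (6.96 ± 1.07, adjusted p = 0.00796), Themis, an adaptor needed in selection (6.35 ± 1.00, adjusted p = 0.00895), and Lat, the membrane scaffold of TCR signalling (6.25 ± 1.02, adjusted p = 0.0100). The 1 gene of the list that fell on day 4 against steady state was Cd5, by 5.54 on the log2 scale (adjusted p = 0.0319). Of the 12 genes listed as partners of V(D)J cleavage and end-joining, 3 rose on day 7 against day 4: Hmgb2, a DNA-bending cofactor of RAG (3.58, adjusted p = 0.0176), Xrcc6, a Ku subunit (2.25, adjusted p = 0.0294), and Lig4, the ligase of the pathway (1.93, adjusted p = 0.0450). Against day 1, 2 of the 12 rose, and in the other 4 comparisons none passed. Their summed level was 346 to 390 CPM at steady state and 353 to 398 CPM on day 4, of which Hmgb1, another cofactor of RAG cleavage, held means of 163 and 168 CPM.

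Markers of the thymocyte stages did not move as one. Of the 8 double-positive markers, 6 rose on day 7 against day 4 and 7 against day 1, and 1 fell on day 4 against steady state. This was Ccr9, a chemokine receptor of thymocytes, which fell by 5.39 on the log2 scale on day 4 (edgeR adjusted p = 0.0183) and rose by 6.79 on day 7 against day 4 (adjusted p = 0.00598). Arpp21 rose by 7.55 on day 7 against day 4 (adjusted p = 0.00796). Of the 8 double-negative markers, none passed in any of the 6 comparisons; Il2ra, the CD25 chain, had a log2 fold change of 1.85 ± 0.77 (adjusted p = 0.216) and Il7r, the IL-7 receptor, of 2.09 ± 0.93 (adjusted p = 0.248) on day 7 against day 4. The summed level of this list was 248 to 422 CPM at steady state and 264 to 378 CPM on day 4, and it holds genes that stroma also expresses, such as Kit, Cd44, Notch1 and Hes1. Of the 10 mature single-positive markers, 2 rose on day 7 against day 4, among them Cd69, an early activation and retention marker (3.90, adjusted p = 0.0327). 1 of them rose against day 1 and none passed in the other 4 comparisons. The summed level of these 10 markers was 270 to 455 CPM at steady state and 239 to 334 CPM on day 4. Which cells held this RNA was not tested.

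Markers of other blood cells gave these values beside the 10 genes. In the erythroid list, 3 of 5 genes fell on day 4 against steady state, 3 fell on day 4 against day 1, 4 rose on day 7 against day 1 and none passed on day 7 against steady state. On day 7 against day 4, 3 rose (among them Alas2, by 6.66, edgeR adjusted p = 0.000264). Its summed level was 6.36 to 9.81 CPM on day 4 and 282 to 775 CPM on day 7. Of the 9 B cell markers, 1 was lower on day 7 than on day 1 and none passed otherwise, with summed levels of 103 to 144 CPM at steady state and 108 to 129 CPM on day 4. Cd79b (1.30, adjusted p = 0.265) and Ms4a1 (1.80, adjusted p = 0.269) did not pass on day 7 against day 4. Of the 8 dendritic and plasmacytoid markers, 1 rose on day 1 and compared with day 1, 1 fell on day 4 and 1 on day 7. The summed level of 575 to 1211 CPM on day 1 was mostly Bst2 (533 to 1202 CPM), while Siglech had 0 to 5 counts in each day 4 library. Cd209a (5.34, adjusted p = 0.0603) and Flt3 (2.90, adjusted p = 0.128) did not pass on day 7 against day 4. Of the 8 macrophage markers, 1 rose on day 1 and none passed otherwise, Adgre1 having 1.66 (adjusted p = 0.270) and C1qa 1.12 (adjusted p = 0.306) on day 7 against day 4. Of the 7 NK and innate lymphoid markers tested, Gzma rose on day 7 against day 4 (3.86, adjusted p = 0.0231), Gata3 did not pass (2.20, adjusted p = 0.0820), and 1 rose against day 1. The stromal markers Foxn1 (-1.95, adjusted p = 0.131) and Cdh5 (-0.57, adjusted p = 0.216) did not pass. The part of any of these cells in the levels of the 10 genes was not tested.

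The 5 genes outside the 10 whose log2 CPM followed the mean of the 10 most closely over the 13 libraries, among genes with a mean of at least 5 CPM, were Sla (Pearson's r = 0.996), Tcf7 (0.995), Themis (0.994), Trbc1 (0.994) and Trbc2 (0.994). Sla encodes an adaptor that dampens TCR signalling, Tcf7 the factor TCF-1 of early T cells, and Trbc1 and Trbc2 the constant regions of the TCR beta chain. Of the 10 genes themselves, Rag2 was closest to their mean (r = 0.987) and Ptcra farthest (r = 0.897). These r are descriptions over 13 libraries that share conditions, and they carry no test.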

How the data were processed

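CD45+ cells were depleted with magnetic beads and CD45- cells were sorted, and polyadenylated RNA was sequenced (13 libraries). The authors trimmed reads (Trimmomatic 0.38), aligned them to GRCm38 (STAR 2.7.0e) and counted them per gene with featureCounts 1.6.3, with versions from the submitters' processing notes. The deposited values are whole-number counts per gene and library, without normalization, and reads that several genes could share make their counts uncertain. Replicate libraries were not pooled. All columns of samples were used. Symbols were paired with 53274 of the 53379 identifiers.

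For the tests, edgeR 4.0.16 was run under R 4.3.3 (a single fit of the 13 libraries, TMM, filterByExpr with a minimum of 10 counts, quasi-likelihood F-test, Benjamini-Hochberg adjustment over 19984 genes, threshold 0.05). Standard errors are the log2 fold change divided by the root of F. The steps were tested on simulated data. Ratios, exact permutation tests and figures used Python 3.11.15, numpy 2.4.6, pandas 2.3.3, scipy 1.17.1 and matplotlib 3.10.9. Depth was 15721866 to 52056896 counts per library, and any 2 libraries differed by more than sampling noise.

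The members and lists were chosen with earlier results of these data known. Named are all 10 members, the 2 genes of lowest adjusted p on day 7 against day 4 from each other list (4 from the TCR signalling list), and the 5 most alike genes. A few list genes are not reported here. Slc4a1, Siglech, Bst2, Lig4 and Ptprc were named after their values were seen. Alternatives were RLE, no filter, at least 10 counts in every library, the compared conditions alone, the tag family of the column names (k3, kk or neither), thinning to the smallest library, DESeq2 1.42.0, the replicate number as a block, each replicate left out, Cd3g as reference, an added count of 2, and no day 4 libraries. In the erythroid list 1 of 6 genes had no match.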

Additional observations from a re-analysis of the deposited data

Results flagged for a closer look

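Rag2 at steady state was the one value, of 19 examined at steady state (the levels of the 10 genes and the 9 ratios to Cd3e), in which a library stood apart by Dixon's ratio. PBS day 7 replicate 1 had 14.2 CPM, against 5.20 to 6.25 CPM in the other three, a ratio of 0.884, above the critical value for 4 libraries. Chance flags about 1 in 20 such groups. The same library was also the highest of the 4 for Rag1, Dntt, Ptcra, Cd3e, Cd4, Cd8a and Cd8b1, though none of these passed that value.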

How the results depend on the processing

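Counts of genes called, of the 10, moved as follows. Against steady state on day 1 (0 as reported) they were 1 without the filter, 1 with the compared conditions alone, 3 with DESeq2 and 0 to 6 with a library left out. On day 4 (4 as reported) they were 9 without the filter, 1 with at least 10 counts in every library (which left 5 of the 10 to test), 8 with the compared conditions alone, 2 with the tag family, 9 with DESeq2 and 0 to 9 with a library left out. On day 7 (0 as reported) they were 8 without the filter, 8 with DESeq2 and 0 to 10 with a library left out. Over all 19984 genes, in either direction, DESeq2 called 1399 on day 1, 645 on day 4 and 1081 on day 7. Without the filter, 555, 250 and 627 of 37877 genes were called on days 1, 4 and 7. With the compared conditions alone, 228 of 18694 were called on day 1 and 146 of 18803 on day 4. With at least 10 counts in every library, 20 of 14126 were called on day 4. For day 4 against day 1 (3 as reported) the counts of the 10 were 1 with at least 10 counts in every library, 0 with the tag family and 0 to 5 with a library left out. With at least 10 counts in every library they were 5 of 5 for day 7 against day 1 and 5 of 5 for day 7 against day 4 (both 10 as reported), and 5 to 10 and 2 to 10 with a library left out. With the compared conditions alone these 2 counts were 8 (Rag1 and Cd4 lost) and 7 (Ptcra, Cd3e and Cd3g lost), and with the tag family 8 (Rag1 and Cd4 lost) and 10. Over all genes, in either direction, the compared conditions alone called 1130 of 18141 and 394 of 18261. The tag family called 1416 and 854 of 19984. With at least 10 counts in every library, 880 and 355 of 14126 were called. That filter called 282 for day 4 against day 1. Of the 9 ratios, 5 to 6 had a p of 0.05 or less with a library left out, and 1 without the day 4 libraries. With Cd3g as reference 6 did, and with an added count of 2 also 6. The sign of the day 4 against day 1 change of Ptcra (-0.12) turned without day 1 replicate 1 (0.32), day 4 replicate 1 (0.03) and day 4 replicate 2 (0.15), within a range of -0.65 to 0.32 over all libraries left out. Other signs held under all alternatives run. The cause of these shifts was not tested, except that fewer genes were left under the stricter filter.

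With the replicate number as a block, 0 of the 10 genes were called in each of the comparisons of day 4 with day 1, day 7 with day 1 and day 7 with day 4. Over all 19176 genes tested there, 56, 640 and 0 were called in that order, in either direction. Correlations of same-numbered libraries' deviations ran from -0.62 to -0.33 between days 4 and 1, from -0.31 to 0.07 between days 7 and 1 and from -0.14 to 0.19 between days 7 and 4. Those of differently numbered libraries ran from -0.42 to 0.53, from -0.20 to 0.32 and from -0.30 to 0.26, in the same order. So few libraries a day cannot decide whether the replicate numbers pair them. Steady-state columns carry other numbers than their labels, so no block was fitted there. On day 4, 4 of the 10 genes had 3 or fewer counts in replicate 1, and thinning all libraries to the smallest left the count of 4 against steady state at 4.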
